A study of Mus musculus with 8 samples.

Results

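8 genes whose products are used to describe the state of macrophages were followed in mouse heart cells and heart muscle: the arginases Arg1 and Arg2, the inducible nitric oxide synthase Nos2, the secreted proteins Chil3 and Retnla, the cyclooxygenase Ptgs2, and 5-lipoxygenase Alox5 with its partner protein Alox5ap. They were chosen by name, with earlier results of these data known, and Chil3 is listed on the array under its older name Chi3l3. Each has 1 probe, so they make up 8 of the 55681 probes and 8 of the 34741 gene names measured.

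Gene expression was measured on 8 1-colour Agilent arrays, 2 for each of 4 groups of C57BL/6 mice. CD45-negative cells were primary cells sorted as positive for the receptor c-kit and negative for the leukocyte antigen CD45, from cultured explants of the left atrial appendage digested strongly (trypsin 0.25%, collagenase D 0.1%). CD45-positive cells were primary cells sorted as positive for both antigens, from explants of the same tissue digested weakly (trypsin 0.05%, collagenase D 0.1%). Passage-8 cells were derivatives of sorted CD45-positive cells at passage 8. All 3 came from mice 8 to 12 weeks old. The control was biopsied wall of the left ventricle of mice 12 weeks old, a whole tissue of many cell types. The series title presents macrophage precursors of the left atrial appendage that become c-kit-positive, CD45-negative cells, and the comparisons ask how the transcripts of the groups differ. Sort gate and digestion strength changed together between the primary groups and cannot be told apart. The same holds for tissue, culture, cell sorting and RNA extraction reagent between the cells and the ventricle. Passage-8 cells also differ from the primary cells in time in culture, which cannot be told apart from their other differences. Whether the replicates are separate cultures, separate mice or repeat preparations is not in the labels. A p-value therefore reflects no more than how far these samples spread, and that spread may be technical.

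Macrophages take up arginine and use it in competing ways. Arginase splits it into ornithine and urea, whereas the inducible nitric oxide synthase turns it into nitric oxide and citrulline. Interleukin 4 induces Arg1, Chil3 and Retnla in mouse macrophages, a state called alternative activation, and microbial products with interferon gamma induce Nos2, a state called classical activation. Both states can also make lipid mediators from arachidonic acid, the prostaglandins through Ptgs2 and the leukotrienes through Alox5, which needs the membrane protein Alox5ap to receive its substrate.

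Each gene is measured at 1 place, so the probe sequences show what its value refers to. The probes are 60 bases long, and the first 30 bases of each are given in lower case, 5′ to 3′, as in the array files. Positions are those of the array files in build mm9, and the exon or untranslated region at each position was not analysed here.
Arg1, chr10:24636194-24636253, minus strand: aactctgggaattaagtatttctccatgac
Arg2, chr12:80252972-80253031, plus strand: cacaggaacccctgttgtagggggattaac
Nos2, chr11:78773567-78773626, plus strand: caccatgccgccgctctaatacttagctgc
Chil3, chr3:105950485-105950544, minus strand: tgaacatcttttgcttcctgtaaaaccacc
Retnla, chr16:48844447-48844506, plus strand: gatgaatctaacaaaaactgcagtctcaat
Ptgs2, chr1:151954744-151954803, plus strand: tttttgaaaagtttgaagttagaacttagg
Alox5ap, chr5:150099347-150099406, plus strand: agagacgcatcataacgcaatgccgcgaag
Alox5, chr6:116360326-116360385, minus strand: tttatgcttcctccaattgcttgcatagag
Against the 55680 other probes of the array, the longest run that any of the 8 shared with a probe of another gene was 13 or 14 bases. The probes were compared with other probes only, and not with whole transcripts of related genes such as Chil4. Nos2 is spotted 2 times on each array and Ptgs2 10 times, and the other 6 probes are spotted 1 time.

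All levels below are log2 of the scanner's processed signal minus the 75th percentile of that array, so 0 is the 75th percentile and a value of -5 lies close to the background. "Well above background" is the scanner software's own call for a spot. The lowest signal with that call lay between -5.86 and -4.53 across the arrays. Between 51.5% and 69.9% of spots per array had the call, and no spot was saturated. Replicates differed most in CD45-negative cells (SD 0.545 over 17994 genes, against 0.175 to 0.372 in the other groups). Ptprc, the gene of CD45, stood at 2.04 and 1.93 in CD45-positive cells and at or below -2.33 on the other 6 arrays. Kit, the gene of c-kit, stood at -6.34 (not well above background) and -1.55 in CD45-negative cells, -3.57 and -3.33 in CD45-positive cells, -5.68 and -5.55 in passage-8 cells, and -1.48 and -2.48 in ventricle, so no cell array lay above ventricle replicate 1 in Kit RNA. All 14 genes of a macrophage marker list were well above background on both CD45-positive arrays. In CD45-negative cells all 14 were higher on replicate 2 than on replicate 1, by a median of 3.45 log2 units, whereas the median gap of all genes there was -0.06. The summed signal of the list, in percent of the 75th percentile, was 6128 and 11120 on CD45-negative replicates 1 and 2, 118200 and 116500 in CD45-positive cells, 3561 and 3604 in passage-8 cells, and 10400 and 9905 in ventricle. Outside CD45-positive cells the larger part of each sum came from Itgam. Itgam stood at 5.83 and 6.06 in CD45-negative cells, 4.79 and 4.82 in passage-8 cells and 5.81 and 5.90 in ventricle. It was lower in CD45-positive cells, at 4.31 and 4.29. The list's median level was -2.14 and 0.71 in CD45-negative, 6.37 and 6.28 in CD45-positive and -3.97 and -3.41 in passage-8 cells. In ventricle it was 0.78 and 0.63. These are bulk RNA samples, in which fewer cells of a type and less RNA per cell cannot be told apart.

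**Figure D1:**
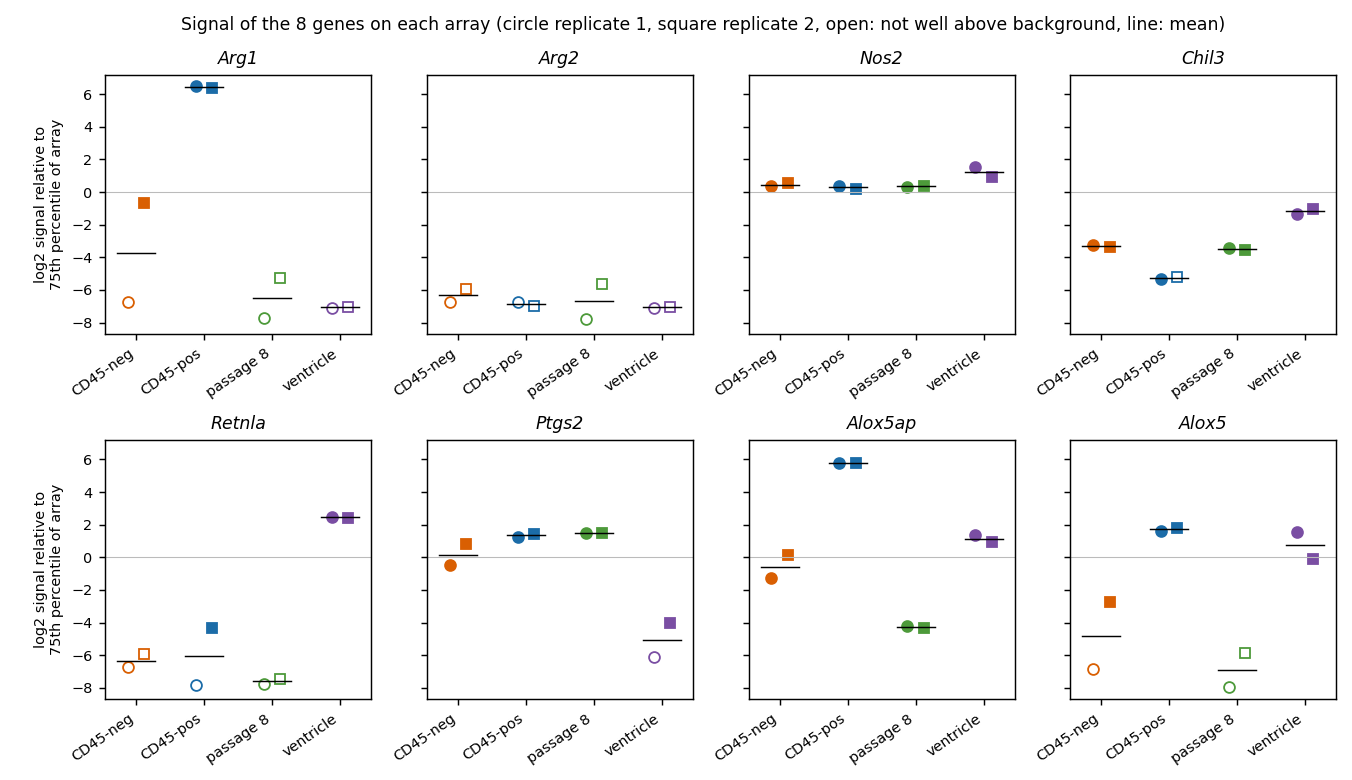
Log2 signal of the 8 genes, minus the array's 75th percentile, in the 4 groups, with replicate 1 as a circle, replicate 2 as a square, open symbols for values not well above background and a line at the group mean. Arg1 and Alox5ap stand at 6.40 to 6.48 and at 5.80 in CD45-positive cells, above every other group, whereas Retnla is bright only in ventricle and Nos2 stays between 0.21 and 1.54.

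The 8 genes did not share a profile. Arg1 and Alox5ap were highest in CD45-positive cells, Retnla and Chil3 were highest in ventricle, Ptgs2 was bright in the 3 cell groups and dim in ventricle, Nos2 varied little and Arg2 was not well above background on any array. A difference passed when limma's Benjamini-Hochberg adjusted p was under 0.05 and the absolute log2 difference was at least 1, among genes that both arrays of a compared group measured well above background. A gene dim in 1 group entered a test only through the group where it was bright, so the counts below are descriptions.

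Compared with CD45-positive cells, Arg1, Alox5ap and Alox5 were lower and Chil3 was higher in CD45-negative cells, and the same held in passage-8 cells. In both comparisons 6 of the 8 genes were tested, 3 were lower, 1 was higher, and Nos2 and Ptgs2 did not pass. Over all genes tested, CD45-negative cells had 11.2% higher and 10.5% lower, and passage-8 cells had 12.5% higher and 10.9% lower. Between passage-8 and CD45-negative cells 4 genes were tested and only Alox5ap passed, being lower at passage 8, against 6.92% of all genes lower and 6.89% higher. The comparisons with CD45-positive cells share those 2 arrays.

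Against ventricle, Ptgs2 was higher in all 3 cell groups and Retnla and Chil3 were lower in all 3. In CD45-negative cells 6 genes were tested, 1 was higher and 4 were lower, against 20.3% and 19.1% of all genes. In passage-8 cells the counts were the same, 1 higher and 4 lower of 6, against 20.3% and 18.8%. In CD45-positive cells 7 genes were tested, 3 were higher and 2 were lower, against 18.3% and 19.8%. The 3 comparisons share the 2 ventricle arrays.

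**Figure D2:**
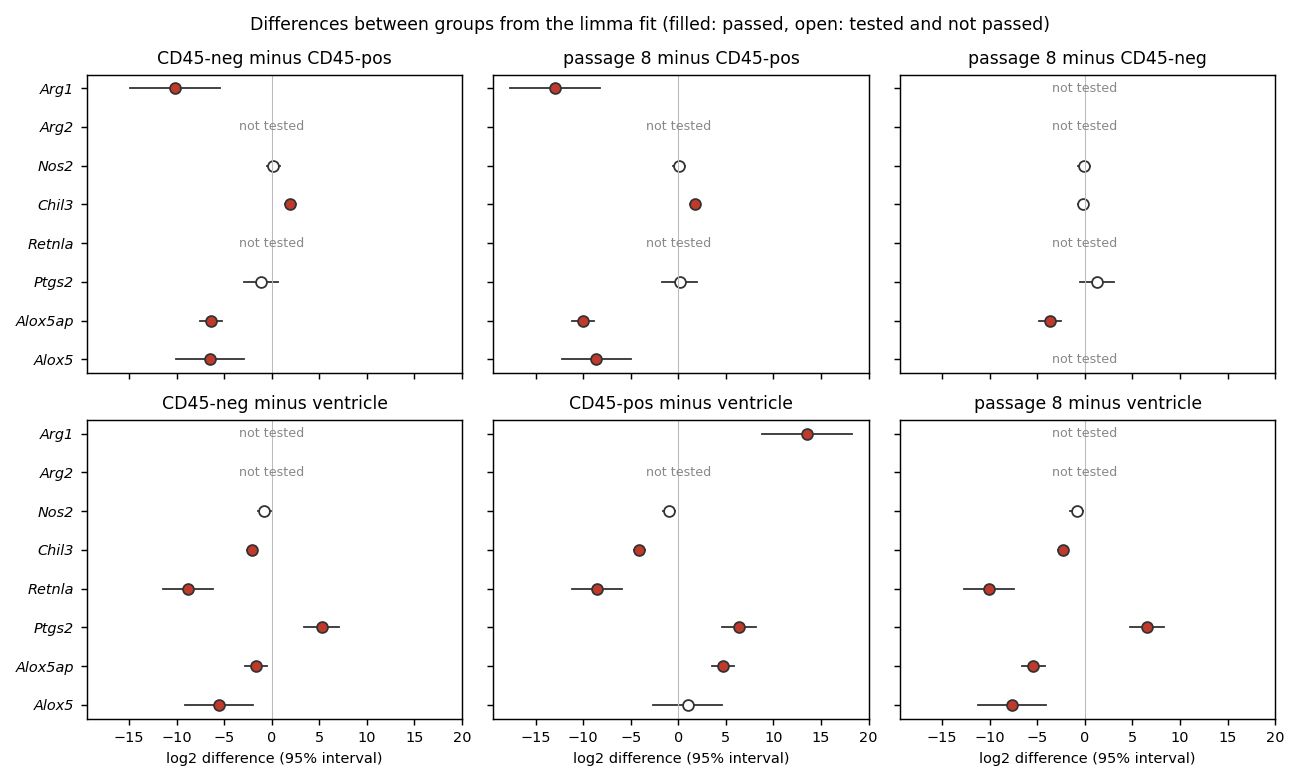
Log2 difference with its 95% interval for each gene in the 6 comparisons, from the limma fit to all 8 arrays, with filled symbols for differences that passed and open symbols for those that were tested and did not. The widest intervals belong to Arg1 and Alox5, for example -14.88 to -5.41 for Arg1 in CD45-negative minus CD45-positive cells, and the Nos2 intervals among the cell groups lie between -0.74 and 0.81.

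Arg1, the cytosolic arginase that alternative activation induces, was abundant in CD45-positive cells and not well above background on 5 of the other 6 arrays. Its log2 level was 6.48 and 6.40 in CD45-positive cells. It was -6.74 and -0.68 in CD45-negative cells, -7.74 and -5.25 in passage-8 cells, and -7.08 and -7.04 in ventricle. Outside the CD45-positive cells, CD45-negative replicate 2 was the only array with Arg1 well above background, and no array of another group came near the CD45-positive values. Set against CD45-positive cells, passage-8 cells had at least 4070-fold less Arg1 (limma adjusted p = 0.00648), and ventricle at least 2700-fold less (limma adjusted p = 0.00293). These folds are lower bounds, because the dim group is set to the array's lowest signal well above background where its own is lower. The adjusted p beside any such fold, here and below, belongs to the limma difference of the values as measured (for Arg1 -12.93 and 13.50). It does not test the bound.

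CD45-negative cells had less Arg1 than CD45-positive cells in the fit (log2 difference -10.15, SE 1.92, limma adjusted p = 0.016, n = 2 per group). That mean joins 2 unlike arrays. CD45-negative replicate 2 lay 139-fold below the CD45-positive mean, and replicate 1 was not well above background. The difference was -7.12 without replicate 1 and -13.17 without replicate 2 of the CD45-negative cells. Leaving out CD45-positive replicate 1 or 2 kept its size (-10.11 and -10.19), but it no longer passed. On CD45-negative replicate 2 Arg1 lay 6.06 log2 units above replicate 1, beside gaps of 4.91 for the surface receptor Adgre1, 3.02 for the lysozyme Lyz2 and 2.77 for the receptor Csf1r. The part of these markers in the Arg1 difference was not tested.

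**Figure D3:**
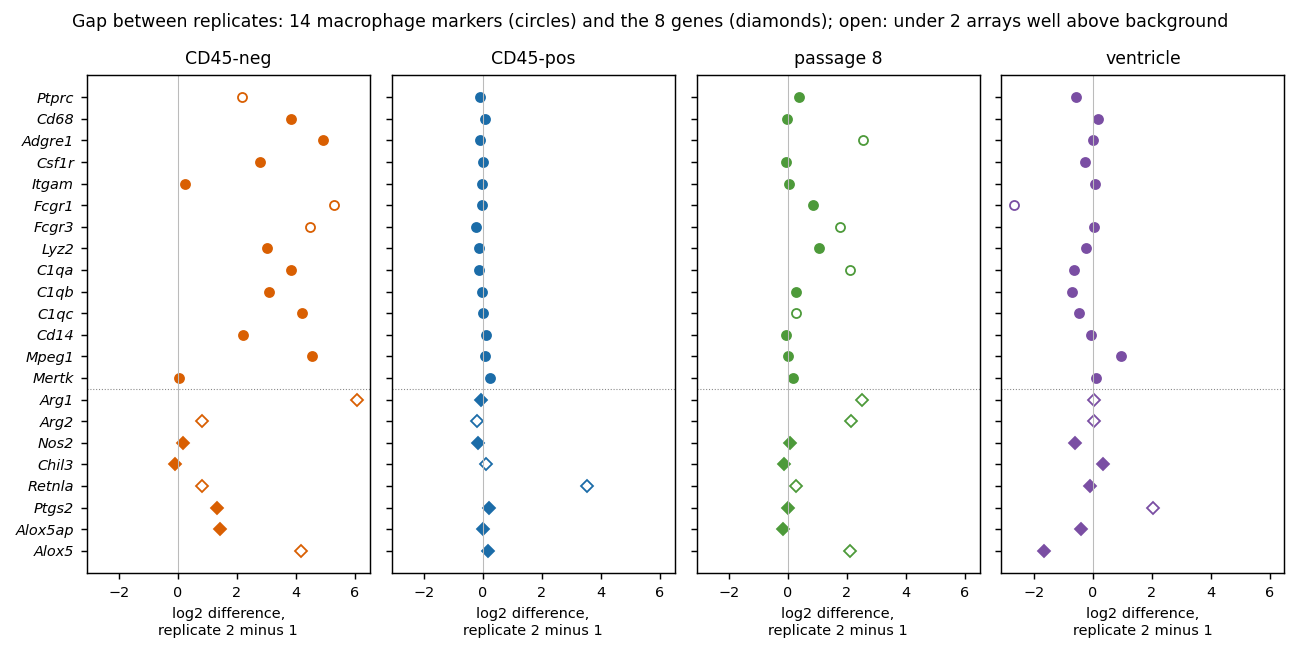
Log2 signal of replicate 2 minus replicate 1 in each group, for the 14 macrophage markers (circles) and the 8 genes (diamonds), with open symbols where under 2 arrays were well above background. In CD45-negative cells all 14 markers lie above 0, with a median of 3.45, and Arg1 (6.06) and Alox5 (4.16) lie above 0 as well, whereas Nos2 (0.17) and Chil3 (-0.12) lie close to 0.

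Arg2, the mitochondrial arginase, had no array of the 8 with a spot well above background. Its values ran from -7.76 to -5.61, at or below the lowest signal well above background on the same arrays, so no group was compared. Its level was not measurable here, which does not show that the transcript is absent.

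Nos2, the inducible nitric oxide synthase, was well above background on all 8 arrays and varied little. Its log2 level was 0.37 and 0.54 in CD45-negative cells, 0.38 and 0.21 in CD45-positive cells, 0.33 and 0.39 in passage-8 cells, and 1.54 and 0.95 in ventricle. The 6 cell arrays overlapped, and both ventricle arrays lay above all of them. Its 2 spots differed within an array by a coefficient of variation of 0.11% to 5.31%.

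Among the cell groups no Nos2 difference passed. The log2 difference was 0.17 in CD45-negative minus CD45-positive cells (95% interval -0.48 to 0.81, limma adjusted p = 0.675) and 0.07 in passage-8 minus CD45-positive cells (95% interval -0.58 to 0.72, limma adjusted p = 0.867). Against ventricle it was -0.79 for CD45-negative, -0.95 for CD45-positive and -0.88 for passage-8 cells (limma adjusted p = 0.0521, 0.0301 and 0.0373), each under the fold limit. Without ventricle replicate 2 these became -1.09, -1.25 and -1.18, beyond the fold limit. Without ventricle replicate 1 they shrank to -0.49, -0.65 and -0.58, so their size rested on which ventricle array was kept. On all 8 arrays the CD45-positive difference passed with normexp (-1.01, limma adjusted p = 0.00991) and from the authors' deposited table (-1.13, limma adjusted p = 0.00267).

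Around these 3 enzymes, most genes of arginine and polyamine metabolism did not pass between the cell groups. This and the later lists are to be read beside the shares over all genes. These were 11.2% higher and 10.5% lower in CD45-negative against CD45-positive cells. For passage-8 cells they were 12.5% and 10.9% against CD45-positive cells, and 6.89% and 6.92% against CD45-negative cells. Of 20 genes tested in CD45-negative against CD45-positive cells, 1 was higher and 3 were lower (median log2 difference -0.35, against 0.17 over all genes). The transporter Slc7a7, which exports basic amino acids, was lower (log2 difference -1.64, SE 0.24, limma adjusted p = 0.00777), as were the spermine oxidase Smox (-1.55, limma adjusted p = 0.0155) and argininosuccinate lyase Asl (-1.37, limma adjusted p = 0.0226). Ddah2, which degrades inhibitors of nitric oxide synthase, was higher (1.49, limma adjusted p = 0.015). Without CD45-negative replicate 2 the counts were 2 and 7.

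In passage-8 cells 1 of 20 was higher and 3 were lower than in CD45-positive cells (median -0.12, against 0.16). Slc7a7 fell by 2.96 on the log2 scale (limma adjusted p = 0.00117), Smox fell by 2.00 (limma adjusted p = 0.00618) and the polyamine acetylase Sat1 fell by 1.88 (limma adjusted p = 0.00827), and Ddah2 was higher by 1.44 (limma adjusted p = 0.0144). Between passage-8 and CD45-negative cells, 1 of 20 was higher (endothelial nitric oxide synthase Nos3, log2 difference 1.34, limma adjusted p = 0.0435) and 1 was lower (Slc7a7, -1.33, limma adjusted p = 0.0209). Without CD45-negative replicate 1 that comparison had 1 higher and 4 lower.

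Odc1 and Slc7a2 did not pass between the primary cells. Odc1, which turns ornithine into the polyamine putrescine, stood at 3.04 and 3.36 in CD45-negative, 3.37 and 3.36 in CD45-positive and 4.12 and 4.13 in passage-8 cells. The arginine transporter Slc7a2 stood at -0.73 and -0.70 in CD45-positive and -0.86 and -0.85 in passage-8 cells, and at -3.31 and 0.19 on the CD45-negative arrays. Both genes were picked for their place next to arginase after their values were seen.

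Against ventricle, of 21 genes tested, CD45-negative cells had 8 higher and 4 lower (20.3% and 19.1% over all genes), CD45-positive cells 10 and 4 (18.3% and 19.8%), and passage-8 cells 7 and 3 (20.3% and 18.8%). The counts of lower genes lie near or under these shares. Argininosuccinate synthase Ass1, which recycles citrulline to arginine, was higher in each (log2 difference 4.26, 3.85 and 3.33, limma adjusted p = 0.000714, 0.00104 and 0.00165). Nos3 was lower in each (-4.35, -4.09 and -3.01, limma adjusted p = 0.000347, 0.000415 and 0.00102), beside endothelial markers of which 7, 6 and 7 of 8 were lower. The part of endothelial cells in the Nos3 difference was not tested.

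Chil3, also called Ym1, is a secreted chitinase-like lectin of macrophages and neutrophils. Its log2 level was -3.25 and -3.37 in CD45-negative cells, -5.31 and -5.23 in CD45-positive cells, -3.45 and -3.58 in passage-8 cells, and -1.35 and -1.01 in ventricle. The groups did not overlap, except that CD45-negative and passage-8 cells lay side by side. CD45-positive cells were the lowest, with only replicate 1 well above background.

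The order of Chil3 was thus opposite to that of Arg1 in the primary cells. CD45-negative cells had 3.885-fold more of it than CD45-positive cells (log2 difference 1.96, SE 0.22, limma adjusted p = 0.00393) and passage-8 cells 3.374-fold more (log2 difference 1.75, SE 0.22, limma adjusted p = 0.00365). CD45-negative and passage-8 cells differed by -0.20 (95% interval -0.73 to 0.33, limma adjusted p = 0.561). Against ventricle Chil3 was 17.0-fold lower in CD45-positive cells (limma adjusted p = 0.000165), where 1 of 2 arrays was well above background. The CD45-negative level was 4.39-fold lower than that of ventricle (limma adjusted p = 0.000846), and the passage-8 level 5.05-fold lower (limma adjusted p = 0.000649). With another background correction (normexp) the passage-8 difference from CD45-positive cells was 0.64 and did not pass (limma adjusted p = 0.132), and from the authors' deposited table it was 0.94, under the fold limit (limma adjusted p = 0.0454). The normexp difference of CD45-negative cells from ventricle was -0.90, also under that limit.

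Retnla, also called Fizz1 or Relm-alpha, is a small secreted cysteine-rich protein. It was bright in ventricle, at 2.50 and 2.39, and close to background in most cells. CD45-negative cells stood at -6.73 and -5.92, CD45-positive cells at -7.82 and -4.31, and passage-8 cells at -7.75 and -7.47. CD45-positive replicate 2 was the only cell array where it was well above background. Compared with ventricle, CD45-negative cells had at least 134-fold less (limma adjusted p = 0.00161) and passage-8 cells at least 285-fold less (limma adjusted p = 0.00104). The CD45-positive difference was -8.51 (SE 1.07, limma adjusted p = 0.00187), from 1 measured and 1 dim array, and ran from -10.27 to -6.76 with 1 array left out. Cells were not compared with each other, because no cell group had both arrays well above background.

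Of the 8 related chitinase-like and resistin-like genes, few were measurable. In CD45-negative against CD45-positive cells 3 were tested, and the chitinase-like Chil1 was at least 7.82-fold higher (limma adjusted p = 0.0428) and Chid1 lower (log2 difference -1.65, limma adjusted p = 0.0328). Chil1 stood at -1.28 and -3.55 on the CD45-negative arrays and no longer passed without replicate 1 of that group. In passage-8 against CD45-positive cells 4 were tested and only Chil1 passed, being at least 6.88-fold higher (limma adjusted p = 0.0463). Between passage-8 and CD45-negative cells 0 of 4 passed in the limma fit, 2 had an unadjusted p under 0.05 (Chid1 and Retn), and without CD45-negative replicate 2 the count was 1. Chil4, the close relative of Chil3 known as Ym2, was well above background on 1 array only, passage-8 replicate 2 at -3.97.

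Against ventricle few of the list passed, beside shares over all genes of 18.3% to 20.3% higher and 18.8% to 19.8% lower. Of 4 tested, Retn (resistin) was lower in CD45-negative cells (log2 difference -2.34, limma adjusted p = 0.038), and 2 were lower without replicate 2 of those cells. In CD45-positive cells Chid1 was higher (1.75, limma adjusted p = 0.0167) and Chil1 at least 4.88-fold lower (limma adjusted p = 0.0451), and in passage-8 cells Chid1 was higher (1.35, limma adjusted p = 0.0379).

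Retnla was bright in ventricle and dim in cells, and its promoter is shown because interleukin 4 acts on such genes through the factor STAT6. RefSeq promoters (build GRCm38.p6) were given for 4 of the 8 genes, Chil3, Retnla, Ptgs2 and Alox5. The 250 bases before the annotated start are printed 5′ to 3′ on the strand of the gene, with motif matches in capitals.
Retnla, chr16:48842359-48842608, plus strand: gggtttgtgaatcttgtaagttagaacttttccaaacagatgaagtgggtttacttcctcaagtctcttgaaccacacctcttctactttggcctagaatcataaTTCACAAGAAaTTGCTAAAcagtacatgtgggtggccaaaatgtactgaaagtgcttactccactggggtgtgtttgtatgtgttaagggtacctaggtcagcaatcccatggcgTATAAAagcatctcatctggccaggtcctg
7 motifs were searched on both strands. STAT6 was TTC and GAA with 4 free bases between them, C/EBP was TTGCNNAA, and NF-kB was GGGA and TTCC with 2 free bases between them. AP-1 was TGA and TCA with 1 free base between them, the E-box was CACGTG, Sp1 was GGGCGG and TATA was TATAAA. The Retnla promoter holds a STAT6 match 145 to 136 bases before the start, a C/EBP match 134 to 127 bases before it, and a TATA match 30 to 25 bases before it. None of these matches overlapped another motif. The Chil3 promoter holds no match to the 7 motifs, that of Ptgs2 holds C/EBP letters on both strands 69 to 62 bases before the start and an Sp1 match 170 to 165 bases before it, and that of Alox5 an Sp1 match 35 to 30 bases before it. Of 32851 promoters, 5.85% hold the STAT6 letters, 9.56% C/EBP, 1.21% NF-kB, 6.75% AP-1, 6.02% E-box, 32.7% Sp1 and 12.4% TATA. The matches describe letters in these windows and nothing about the binding of a factor.

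Ptgs2, or COX-2, is the inducible enzyme that turns arachidonic acid into the prostaglandin precursor PGH2. Its log2 level was -0.49 and 0.83 in CD45-negative cells, 1.23 and 1.45 in CD45-positive cells, 1.47 and 1.48 in passage-8 cells, and -6.08 and -4.05 in ventricle. The CD45-positive and passage-8 arrays lay close together, both CD45-negative arrays lay lower, and ventricle lay far below every cell array.

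With 10 spots on each array, Ptgs2 shows how repeat spots vary within an array. On the cell arrays the spots varied by 2.20% to 6.13% (coefficient of variation), from a median signal of 375.4 on CD45-negative replicate 1 to 2725.7 on passage-8 replicate 2. Medians on the ventricle arrays were 9.4 and 34.7, with a variation of 42.3% and 12.9%. Of the 10 spots, 1 was well above background on ventricle replicate 1 and 10 on replicate 2. These figures cover spots of 1 array only, and not the preparation or hybridisation of a sample. The CD45-negative replicates differed 2.50-fold.

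**Figure D4:**
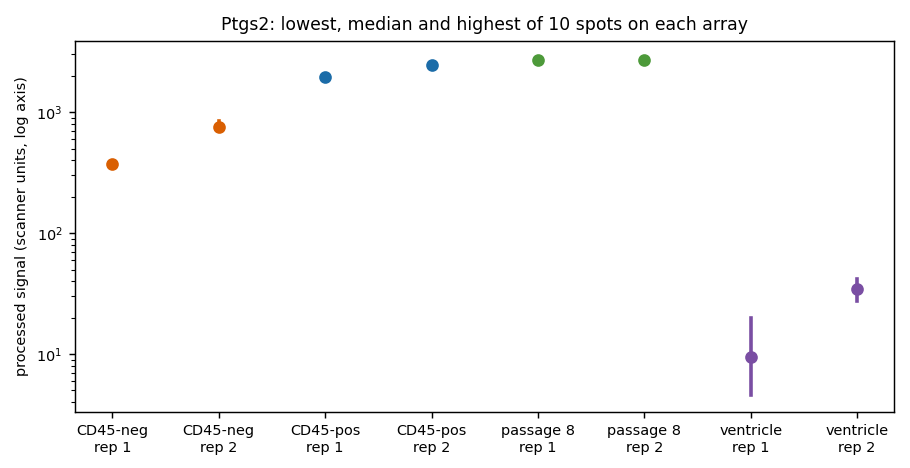
Processed signal of the 10 Ptgs2 spots on each array on a log axis, with a dot at the median and a bar from the lowest to the highest spot. The bars of the 6 cell arrays are short beside the gaps to ventricle, where spots run from 4.6 to 20.0 on replicate 1 and from 27.6 to 41.8 on replicate 2.

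Ptgs2 was higher than in ventricle by 5.23 log2 units in CD45-negative cells (SE 0.73, limma adjusted p = 0.00261), 6.40 for CD45-positive (limma adjusted p = 0.00137) and 6.54 for passage-8 cells (limma adjusted p = 0.00124), with 1 of 2 ventricle arrays well above background. With 1 ventricle array left out these ran from 4.22 to 6.25, 5.39 to 7.42 and 5.52 to 7.55. With normexp they were 3.06, 4.21 and 4.35, and the authors' deposited table gave 4.05, 5.16 and 5.26, and all passed. No difference among the cells passed. CD45-negative minus CD45-positive cells was -1.17 (95% interval -2.97 to 0.64, limma adjusted p = 0.286), and passage-8 minus CD45-positive cells was 0.14 (95% interval -1.67 to 1.94, limma adjusted p = 0.908). Passage-8 minus CD45-negative cells was 1.31 (limma adjusted p = 0.277). With normexp the CD45-negative cells passed against both, at -1.15 (limma adjusted p = 0.048) and 1.29 (limma adjusted p = 0.0447), with nearly the same sizes.

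Among the other prostanoid genes, a few stood far lower in CD45-negative and passage-8 cells than in CD45-positive cells, and most did not pass. In CD45-negative cells 2 of 12 were higher and 3 lower (median log2 difference 0.14, against 0.17 over all genes). The lower genes were the thromboxane synthase Tbxas1 (-7.13, SE 1.58, limma adjusted p = 0.0251), the hematopoietic prostaglandin D synthase Hpgds (-6.46, SE 1.25, limma adjusted p = 0.0169) and the prostaglandin-degrading Hpgd (at least 17.0-fold lower, limma adjusted p = 0.00212). The prostacyclin synthase Ptgis (1.58, limma adjusted p = 0.0233) and the cytosolic prostaglandin E synthase Ptges3 (1.11, limma adjusted p = 0.0134) were higher. Without CD45-negative replicate 1 the counts were 4 higher and 4 lower.

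Tbxas1 and Hpgds followed the same replicate split as Arg1. Tbxas1 stood at -5.60 and -0.24 on CD45-negative replicates 1 and 2 and at 4.11 and 4.31 in CD45-positive cells, and Hpgds at -6.70 and -2.89 against 1.89 and 1.45. Hpgds also marks mast cells. Of the 11 genes of a mast cell list, 3 and 4 were well above background on the CD45-negative arrays, 5 and 4 on the CD45-positive arrays, 4 and 4 at passage 8, and 8 and 9 in ventricle. Tpsb2, Hdc and Kit were among those detected in cells, and Cpa3, Tpsab1, Cma1, Fcer1a and Ms4a2 were not well above background on any cell array. The part of mast cells in the Hpgds difference was not tested. The summed signal of the list, Hpgds included, was 101.7 and 641.4 percent of the 75th percentile for CD45-negative, 424.4 and 322.3 for CD45-positive and 69.6 and 78.3 for passage-8 cells, and 244.6 and 355.1 for ventricle. In CD45-positive cells most of the sum was Hpgds itself, and on CD45-negative replicate 2 most was Hdc (2.34 on the log2 scale). The sums therefore do not stand apart from the Hpgds difference.

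In passage-8 cells 1 of 12 prostanoid genes was higher than in CD45-positive cells and 4 were lower (median 0.09, against 0.16). Hpgds was at least 166-fold lower (limma adjusted p = 0.00638), Tbxas1 was lower by a log2 difference of -6.98 (limma adjusted p = 0.0246), Hpgd was at least 36.1-fold lower (limma adjusted p = 0.000544) and the carbonyl reductase Cbr1 was lower (-1.09, limma adjusted p = 0.0118), while Ptgis was higher (1.36, limma adjusted p = 0.0333). Between passage-8 and CD45-negative cells 1 of 10 passed, Cbr1 (-1.02, limma adjusted p = 0.0245), and 3 passed when either CD45-negative array was left out.

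The phospholipase Pla2g4a and the prostaglandin E synthase Ptges did not pass between the cell groups. Both were picked for their place beside Ptgs2 after their values were seen. Pla2g4a, which releases arachidonic acid, stood at 2.94 and 2.82 in CD45-negative and 2.39 and 2.48 in CD45-positive cells. It stood at 3.35 and 3.48 in passage-8 cells, above all primary cell arrays, and at -0.88 and -0.50 in ventricle. Its rise over ventricle passed in all 3 cell groups (log2 difference 3.57, 3.12 and 4.11, limma adjusted p = 0.000233, 0.000323 and 0.000157). Ptges, the inducible one of its kind, ran from 4.61 to 5.43 over all 8 arrays.

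Against ventricle, CD45-negative cells had 4 of 12 prostanoid genes higher and 4 lower (20.3% and 19.1% over all genes). CD45-positive cells had 4 and 3 (18.3% and 19.8%), and passage-8 cells 3 and 5 (20.3% and 18.8%). The lipocalin-type prostaglandin D synthase Ptgds was lower in each (log2 difference -9.68, -11.60 and -10.82, limma adjusted p = 0.00279, 0.00156 and 0.00191). Ptgis was higher in each (4.03, 2.46 and 3.82, limma adjusted p = 0.000504, 0.00269 and 0.000585).

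Alox5ap, or FLAP, presents arachidonic acid to 5-lipoxygenase. It was well above background on all 8 arrays, at -1.28 and 0.15 in CD45-negative cells, 5.80 and 5.80 in CD45-positive cells, -4.18 and -4.34 in passage-8 cells, and 1.34 and 0.94 in ventricle. The 4 groups did not overlap, and their order from high to low was CD45-positive cells, ventricle, CD45-negative cells and passage-8 cells.

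Each of the 6 Alox5ap differences passed. CD45-negative cells had 82.5-fold less than CD45-positive cells (log2 difference -6.37, SE 0.47, limma adjusted p = 0.00222), and passage-8 cells had 1069-fold less (log2 difference -10.06, SE 0.47, limma adjusted p = 0.000459). Passage-8 cells had 12.9-fold less than CD45-negative cells (log2 difference -3.70, SE 0.47, limma adjusted p = 0.00788), and this ran from -4.41 to -2.98 with 1 array left out. In a fit to those 4 arrays alone it did not pass (limma adjusted p = 0.0925).

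Ventricle stood between. Alox5ap was 25.2-fold higher in CD45-positive cells than in ventricle (limma adjusted p = 0.000911). Passage-8 cells had 42.4-fold less than ventricle (limma adjusted p = 0.00055), and CD45-negative cells 3.27-fold less (log2 difference -1.71, limma adjusted p = 0.0287). The last difference fell under the fold limit without CD45-negative replicate 1 (-0.99, limma adjusted p = 0.0256), and did not pass without ventricle replicate 1 or 2 (limma adjusted p = 0.126 and 0.0781). CD45-negative replicate 2 held 2.69-fold more Alox5ap than replicate 1, beside the higher macrophage markers of that array. The part of those markers in the Alox5ap values was not tested.

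Alox5, the enzyme that makes the leukotriene precursor LTA4, was highest in CD45-positive cells and ventricle. It stood at -6.87 and -2.72 in CD45-negative cells, 1.64 and 1.80 in CD45-positive cells, -7.96 and -5.84 in passage-8 cells, and 1.58 and -0.08 in ventricle. CD45-negative replicate 1 and both passage-8 arrays were not well above background. CD45-positive cells and ventricle replicate 1 lay close together, with ventricle replicate 2 lower.

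Passage-8 cells had at least 172-fold less Alox5 than CD45-positive cells did (limma adjusted p = 0.0097), and at least 87.8-fold less than ventricle (limma adjusted p = 0.00805). Without CD45-positive replicate 1 or 2 the first was -8.71 and -8.55 on the log2 scale (-8.63 with all arrays) and did not pass. Without ventricle replicate 1 the second was -6.82 (-7.65 with all arrays) and did not pass. CD45-positive cells and ventricle differed by 0.97 (95% interval -2.62 to 4.57, limma adjusted p = 0.619).

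For CD45-negative cells the Alox5 difference was -6.52 from CD45-positive cells (SE 1.46, limma adjusted p = 0.0258) and -5.54 from ventricle (SE 1.46, limma adjusted p = 0.0244), with 1 of 2 CD45-negative arrays well above background. From CD45-positive cells it was -4.44 without CD45-negative replicate 1 and -8.60 without replicate 2. Leaving out CD45-positive replicate 1 or 2 kept its size (-6.60 and -6.44), but it did not pass. From ventricle it did not pass without CD45-negative replicate 1 (-3.46, limma adjusted p = 0.0589), ventricle replicate 1 (-4.71, limma adjusted p = 0.123) or ventricle replicate 2 (-6.37, limma adjusted p = 0.0644). Replicate 2 of the CD45-negative cells was 17.8-fold above replicate 1.

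Over the 8 arrays the centred profiles of Alox5ap and Alox5 differed by a root mean square of 1.81 log2 units, the smallest distance among the pairs of the 5 genes that varied by over 5 log2 units (Arg1, Retnla, Ptgs2, Alox5ap and Alox5). Arg1 and Alox5ap differed by 3.46. The arrays are 4 pairs of replicates, so these distances describe 4 groups.

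Downstream of Alox5, few genes of the leukotriene and lipoxygenase list passed. In CD45-negative against CD45-positive cells 1 of 8 passed, the dipeptidase Dpep2, which acts on leukotriene D4 (log2 difference -5.12, SE 0.75, limma adjusted p = 0.00752), and the list's median was 0.00, against 0.17. Without CD45-negative replicate 1 the counts were 2 higher and 1 lower. Lta4h, which makes leukotriene B4, stood between 3.11 and 3.36 on the 4 primary cell arrays. It was picked for its place after Alox5.

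In passage-8 cells 1 of 9 was higher than in CD45-positive cells and 3 were lower (median 0.46, against 0.16). Dpep2 was lower (-6.18, limma adjusted p = 0.00346), as were the dipeptidase Dpep1 (-4.33, limma adjusted p = 0.00131) and the leukotriene C4 synthase Ltc4s (-1.23, limma adjusted p = 0.0403), and the glutathione transferase Mgst2 was higher (2.18, limma adjusted p = 0.00422). Against CD45-negative cells, Dpep1 was lower (-5.32, limma adjusted p = 0.00145) and Mgst2 higher (2.80, limma adjusted p = 0.00386) among 9 tested, and 1 higher and 3 lower passed without CD45-negative replicate 1. Dpep1 fell and Mgst2 rose on both passage-8 arrays relative to all 4 primary arrays.

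Against ventricle, CD45-negative cells had 2 of 9 higher and 1 lower (20.3% and 19.1% over all genes). CD45-positive cells had 2 and 2 (18.3% and 19.8%), and passage-8 cells 2 and 3 (20.3% and 18.8%). The counts of higher genes lie near these shares. Mgst2 was higher in each (4.03, 4.65 and 6.83, limma adjusted p = 3e-04, 0.000209 and 9.12e-05), and Dpep2 was higher in CD45-positive cells (6.01, limma adjusted p = 0.00179). Without CD45-negative replicate 1, 4 were higher and 1 lower in the CD45-negative comparison.

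**Figure D5:**
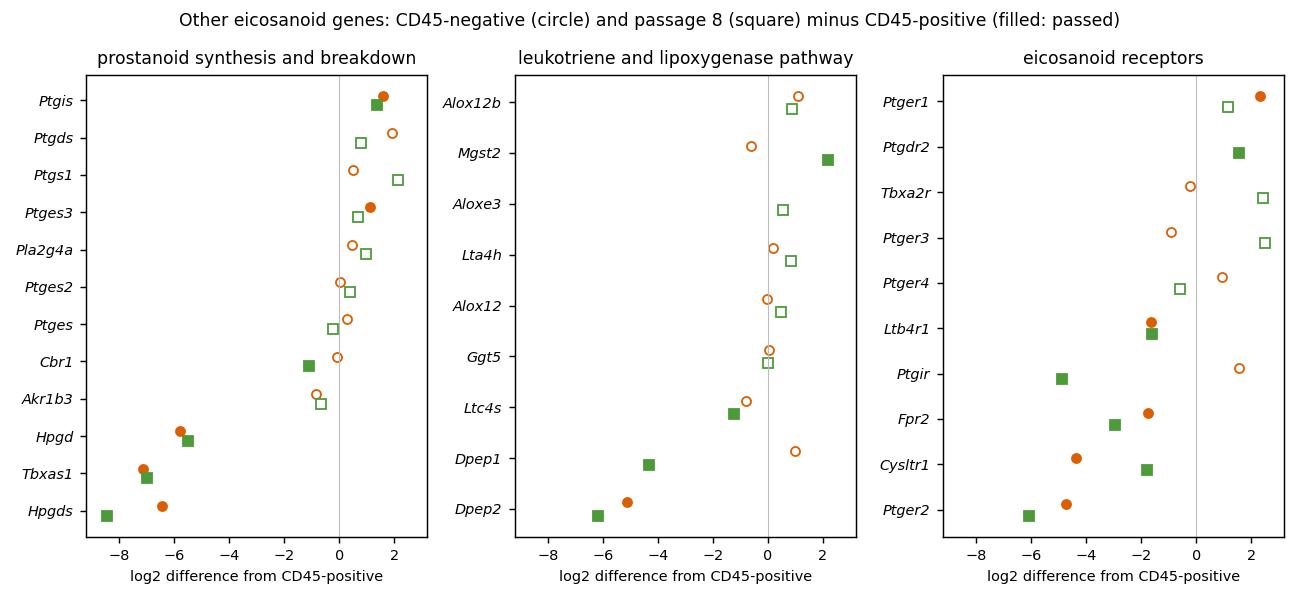
Log2 difference from CD45-positive cells of the other prostanoid, leukotriene and receptor genes, for CD45-negative cells (circles) and passage-8 cells (squares), with filled symbols for differences that passed. Hpgds, Tbxas1, Hpgd, Dpep2 and Ptger2 lie furthest to the left in both groups, and the genes that did not pass lie on both sides of 0.

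Receptors for these lipids were counted as well. In CD45-negative cells 1 of 9 was higher and 4 were lower than in CD45-positive cells (median -0.91, against 0.17). Over all genes 11.2% were higher and 10.5% lower, so the count of higher receptors lies near its share. The prostaglandin E2 receptor Ptger2 was at least 10.72-fold lower (limma adjusted p = 0.00899) and the cysteinyl leukotriene receptor Cysltr1 was lower by a log2 difference of -4.37 (SE 0.34, limma adjusted p = 0.00227). The leukotriene B4 receptor Ltb4r1 was lower (-1.65, limma adjusted p = 0.0166), and the prostaglandin E2 receptor Ptger1 was higher (2.31, limma adjusted p = 0.012). The formyl peptide and lipoxin receptor Fpr2 is counted as lower, but its CD45-positive level lay close to the lowest signal well above background of the CD45-negative arrays, where it was dim, so no size can be given. Without CD45-negative replicate 2 the counts were 2 and 5.

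In passage-8 cells 1 of 10 was higher than in CD45-positive cells and 5 were lower (median -1.12, against 0.16). Ptger2 was at least 22.8-fold lower (limma adjusted p = 0.00341), the prostacyclin receptor Ptgir lower by -4.89 (limma adjusted p = 0.00187), Fpr2 at least 2.10-fold lower (limma adjusted p = 0.00318) and Cysltr1 lower by -1.80 (limma adjusted p = 0.0139). Ltb4r1 was lower as well (-1.62, limma adjusted p = 0.0154), and the prostaglandin D2 receptor Ptgdr2 was at least 1.22-fold higher (limma adjusted p = 0.0288). Compared with CD45-negative cells, 1 of 8 was lower at passage 8, Ptgir (-6.43, limma adjusted p = 0.00165), and 2 passed as higher, Cysltr1 (2.57, limma adjusted p = 0.00872) and Ptgdr2. Ptgdr2 was not well above background in CD45-negative cells and lay, at passage 8, under the lowest signal well above background of those arrays, so no direction can be given for it. Without CD45-negative replicate 2, 4 were higher and 2 lower.

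Cysltr1 was thus graded among the cells, at -2.25 and -1.62 in CD45-negative, 0.63 and 0.64 in passage-8 and 2.42 and 2.44 in CD45-positive cells. Against ventricle, CD45-negative cells had 3 of 8 receptors higher and 1 lower (20.3% and 19.1% over all genes). In CD45-positive cells the counts were 5 and 1 of 10 (18.3% and 19.8%). In passage-8 cells they were 6 and 2 of 9 (20.3% and 18.8%), Ptgdr2 included with the same limit. Without CD45-negative replicate 1 the first counts were 5 and 1. The prostaglandin F receptor Ptgfr was the lower gene in the primary cells and among the lower ones at passage 8 (at least 3.89-fold, 6.60-fold and 8.28-fold, limma adjusted p = 0.0024, 0.000576 and 0.000497).

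The 8 genes are often sorted into alternative and classical markers, and a list of 20 further genes was counted for each state. Of 15 alternative genes tested, CD45-negative cells had 0 higher and 7 lower than CD45-positive cells in the limma fit (median -0.60, against 0.17). The mannose receptor Mrc1 (-7.09, SE 1.44, limma adjusted p = 0.0196), the lectin Clec10a (at least 20.9-fold lower, limma adjusted p = 0.00213) and the scavenger receptor Msr1 (-5.57, limma adjusted p = 0.00439) were among them, with the cytokine Il10 (at least 1.84-fold lower, limma adjusted p = 0.00457). Mrc1 stood at -3.78 and 1.08 on CD45-negative replicates 1 and 2 and at 5.73 and 5.76 in CD45-positive cells. Of 15 classical genes tested, 1 was higher, the chemokine Cxcl9 (2.12, limma adjusted p = 0.00672), and 5 were lower (median -0.63). The costimulator Cd86 was at least 41.0-fold lower (limma adjusted p = 0.00712), the cytokine Il1b lower by -5.03 (limma adjusted p = 0.0183), the regulator Irf5 by -4.84 (limma adjusted p = 0.00212) and Tnf at least 13.2-fold (limma adjusted p = 0.0128). Without CD45-negative replicate 1 the counts were 0 higher and 6 lower in the alternative and 1 and 4 in the classical list, and without replicate 2 they were 1 and 6 in both.

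Passage-8 cells had 0 of 15 alternative genes higher and 8 lower than CD45-positive cells (median -1.93, against 0.16), and 0 of 15 classical genes higher and 9 lower (median -2.05). At an unadjusted limma p under 0.05, Pparg of the first list and Cxcl10 and Cxcl9 of the second were higher. Mrc1 fell by 9.25 on the log2 scale (limma adjusted p = 0.00757) and Msr1 by 7.33 (limma adjusted p = 0.00143), Tfec, a transcription factor of macrophages, was at least 46.4-fold lower (limma adjusted p = 0.00153) and Clec10a at least 44.4-fold lower (limma adjusted p = 0.000535). Among the classical genes Cd86 was at least 105-fold lower (limma adjusted p = 0.00224), Il1b at least 48.0-fold (limma adjusted p = 0.00536), Tnf at least 29.9-fold (limma adjusted p = 0.00427), and Irf5 stood at -1.27 and -1.30 against 2.64 and 2.79 (limma adjusted p = 0.000633). Genes of both lists were therefore lower in the same 2 comparisons in which Arg1, Alox5ap and Alox5 were lower, alongside 13 of 14 macrophage markers lower in each. The part of macrophage content in these list counts was not tested.

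Between passage-8 and CD45-negative cells both lists had 1 gene higher and 3 lower of 12 tested (medians -0.67 and -0.38, against -0.01). The nuclear receptor Pparg was higher at passage 8 (log2 difference 2.43, limma adjusted p = 0.00508), and the interleukin 4 receptor Il4ra (-3.16, limma adjusted p = 0.00174), the chemokine Ccl17 (-2.66, limma adjusted p = 0.0143) and Tfec (at least 8.15-fold, limma adjusted p = 0.0113) were lower. In the classical list Cxcl10 was higher (1.41, limma adjusted p = 0.0323), and Cd38 (-2.90, limma adjusted p = 0.0089), Il6 (-2.62, limma adjusted p = 0.00943) and Cxcl9 (-1.25, limma adjusted p = 0.0429) were lower. Il4ra, through which interleukin 4 acts, stood at 3.29 and 3.56 in CD45-negative, 2.87 and 2.87 in CD45-positive and 0.35 and 0.18 in passage-8 cells.

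For 7 of the 8 genes, all but Arg2, the nearest profiles were sought by the root mean square distance between centred log2 profiles over the 8 arrays, among 15495 genes. Arg1 was nearest to Rgs1 (0.96), Mmp12 (1.21) and Cd5l (1.21), with 1 gene within 1 log2 unit. Alox5ap was nearest to Bst1 (0.47), Crym (0.48) and Pf4 (0.51), with 45 genes within 1 unit. Alox5 was nearest to St8sia4 (0.69), Nfatc2 (0.71) and P2ry14 (0.78), with 13 genes. Retnla was nearest to Mmp15 (0.59), Kcnj8 (0.79) and Thbs4 (0.80), with 8 genes, and Ptgs2 to Pmaip1 (0.50), Runx1 (0.64) and Col12a1 (0.64), with 30 genes. Chil3 was nearest to Fzd9 (0.22), Efna1 (0.23) and Vldlr (0.29), with 1351 genes. Nos2, whose values span 1.34 log2 units, had 9523 genes within 1 unit, and the nearest were Olfr522 (0.08), Bpgm (0.09) and Fbxw5 (0.10).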

How the data were processed

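Total RNA (200 ng, label Cy3) of 8 samples was hybridised to 8 arrays on 1 slide. The authors deposited scanner files of spot intensity, background-subtracted per the file headers. The submitters' processing notes name Agilent Feature Extraction 10.7. The authors' deposited value table holds log2 values with column medians from 6.087 to 6.094, and how they were normalized is not given in the sources read.

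Control and outlier spots were left out, repeat spots averaged, and the brightest probe of each gene kept. Values were scaled to the 75th percentile, the limma 3.58.1 fit (R 4.3.3) used all 8 arrays with a pooled spread (4 residual degrees of freedom), and every adjusted p is limma's, two-sided, by the Benjamini-Hochberg method over all genes tested in a comparison. The fit was tested on simulated data. With 2 arrays a group, the smallest p of an exact permutation test is 0.333.

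The members and lists were chosen with earlier results of these data known. Named genes are the members, up to 4 genes per list and direction by size, genes behind counts of 5 or fewer, the 3 nearest profiles per member, Ptprc and Kit, and genes said in the text to be picked. Probes were matched to RefSeq for 27235 of 55681. Alternatives covered normalization, background, the authors' table, filters, probes, thresholds, arrays, array weights, the replicate block and each array left out. The number of arrays limits the precision.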

Additional observations from a re-analysis of the deposited data

How the results depend on the processing

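Over the alternatives, 502 of the refitted member differences kept their direction and their side of the limits, 25 no longer passed, 9 newly passed and 1 changed sign: Nos2 in passage-8 minus CD45-positive cells was -0.02 without CD45-positive replicate 2, with a limma adjusted p of 0.986, and ran up to 0.16 with another array left out. Of the 8 genes, those passing moved as follows. With only genes well above background on all 8 arrays 1 passed in each comparison except passage-8 against CD45-negative cells, where the count stayed at 1, because most members were no longer tested. At an adjusted p under 0.01, 2 passed in CD45-negative against CD45-positive cells and 3 in CD45-negative cells against ventricle. With only the 4 arrays compared the counts were 2 in CD45-negative against CD45-positive cells and, in limma, 0 in passage-8 against CD45-negative cells, where Alox5ap had an adjusted p of 0.0925, and with normexp 2 passed in the latter.

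With 1 array left out, the members passing ranged from 2 to 4 in CD45-negative against CD45-positive cells, 3 to 4 in passage-8 against CD45-positive cells, 1 to 2 in passage-8 against CD45-negative cells, 3 to 5 in CD45-negative cells against ventricle, 5 to 6 in CD45-positive cells and 4 to 6 in passage-8 cells against ventricle. The genes passing over the whole array, from 4662, 5476, 3142 and 8781 in the first 3 comparisons and in CD45-positive cells against ventricle, ranged from 812 to 5989, 2181 to 4831, 859 to 5166 and 5635 to 7424. At an adjusted p under 0.01 the first 3 counts were 1895, 2782 and 957. With only the 4 arrays compared they were 1953 in the first and 180 in the third, and with array weights 2087 in the third. The cause of these moves, the fewer arrays included, was not tested.

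With the replicate number as a block (replicate block), 4329, 5158, 2625, 8684, 8605 and 9199 genes and 4, 4, 1, 5, 5 and 5 members passed in the 6 comparisons, with no member call changed. The gaps between replicates correlated between groups from -0.169 to 0.165. These correlations cannot decide whether same-numbered samples came from shared mice or cultures, which is not in the labels. Retnla, Alox5 and Arg1 in their dim groups lie near background, where signal limits the size of a difference. List counts without a CD45-negative array were added after the data were seen, and those that moved by over 1.5 times stand beside their list.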

Other observations

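The IL-6 gene Il6, a classical activation cytokine, was not well above background in ventricle and at least 518-fold higher for CD45-negative, 465-fold for CD45-positive and 84.5-fold for passage-8 cells (limma adjusted p = 6.11e-05, 7.43e-05 and 0.000105). The transcription factor Egr2, from the alternative list, was higher than in ventricle in all 3 cell groups (log2 difference 5.74, 5.65 and 5.31, limma adjusted p = 0.00117, 0.0013 and 0.00157). Against ventricle, CD45-negative cells had 4 of 17 alternative genes higher and 5 lower, CD45-positive cells 7 and 3 of 18, and passage-8 cells 2 and 6 of 16. In the classical list the same counts were 4 and 3 of 14, 7 and 2 of 16, and 3 and 6 of 14. Of all genes tested against ventricle, 18.3% to 20.3% were higher and 18.8% to 19.8% lower, depending on the cell group. Some of the list counts lie near these shares. The hemoglobin scavenger receptor Cd163 was at least 3.19-fold, 5.41-fold and 6.78-fold lower (limma adjusted p = 0.000962, 0.000506 and 0.000413), and the eotaxin Ccl24 was at least 16.0-fold and 27.2-fold lower in the CD45-negative and CD45-positive cells and had a log2 difference of -5.73 at passage 8 (limma adjusted p = 0.00379, 0.00365 and 0.00395).

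Markers of other cell types were measured beside the 8 genes, as signal summed over each list in percent of the 75th percentile. Fibroblast markers were well above background for 9 of 9 genes on every array, with sums of 147300 and 156300 for CD45-negative, 64130 and 61380 for CD45-positive and 106400 and 105700 for passage-8 cells, and 28080 and 43010 for ventricle. Neutrophil sums ran from 11520 to 20250 and were carried by Csf3r (6.79 to 7.59 on the log2 scale). Elane, Camp, Mmp8 and Mpo were also well above background on all 6 cell arrays, S100a8 on both CD45-positive arrays (-0.99 and -0.91) and S100a9 on none. Dendritic cell sums were 4234 and 4497 in CD45-positive cells and 43.9 to 331.7 elsewhere. The former were carried by Itgax (5.39 and 5.48), which macrophages share. Flt3 (-2.61 and -2.97) and Zbtb46 (-3.49 and -3.94) were also well above background on both CD45-positive arrays. Xcr1, Clec9a, Ccr7 and Cd209a were not well above background there. Smooth muscle sums ran from 6835 to 22840 and mesothelial sums from 216.1 to 3756. Endothelial sums were 12660 and 13990 in ventricle and 1451 to 2611 in cells, cardiomyocyte sums 400800 and 331500 in ventricle and 51.1 to 606.4 in cells, and red cell sums 27740 and 19060 in ventricle and 4.858 to 14.99 in cells. Eosinophil sums ran from 19.0 to 46.7 and lymphocyte sums from 139.9 to 395.3.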
